A study of Rattus norvegicus with 15 samples.

Results

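The genes described here encode the proteins of the cytosolic ribosome, measured in rat ventral tegmental area, a midbrain source of dopamine for the forebrain. Members were the genes named by the array annotation with a probe set of exactly 1 symbol that starts Rpl or Rps before a digit, or Rplp before a digit, or is Rpsa, leaving out the kinases whose symbols start Rps6k. One probe set stood for each gene, the one with the highest mean over all 15 arrays. This gave 50 genes out of the 14224 that had a probe set of 1 symbol, and 43 of the 50 passed a filter on dim probe sets (a mean log2 value of 6.94 or more). The 43 comprised 26 proteins of the large subunit, the stalk protein Rplp0, 12 proteins of the small subunit, 3 paralogues (Rpl26l1, Rpl7l1 and Rps27l) and the pseudogene Rpl37-ps2.

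Tissue came from 7 rats that had drunk ethanol and from 8 rats of like age given water, each on its own array. The series title names the alcohol-preferring (P) line, a stock selected for voluntary intake, and loss of control over drinking. The design text mentions selection both for high and for low intake, and no label states the line, sex or age of a single rat. Values are log2 intensities that the authors made with RMA, which brings the arrays to a common scale, so a change shared by most transcripts would not be seen. Array medians still differed by up to 0.061 log2 units. A probe set's level depends on its probes as well as on the mRNA, so levels serve here only to sort probe sets into bright and dim ones.

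A ribosome is built from a small subunit, which reads the mRNA, and a large subunit, which joins amino acids and carries a flexible stalk that recruits elongation factors. Most of its proteins are needed in equal numbers, and their mRNAs are among the most abundant in any cell. Most of these mRNAs start with a run of pyrimidines, the terminal oligopyrimidine (TOP) sequence, through which the kinase mTOR and the protein Larp1 control their translation and stability. Neurons, glia and vascular cells all express them, so in a tissue sample the level reflects every cell type present.

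Ribosomal protein mRNAs had slightly higher means in ethanol rats. All 43 differences were below 10%, which held for 87.9% of all probe sets. Of the 43 members tested, 40 had a higher mean in ethanol rats, against 53.3% of the 18625 probe sets tested. The median difference over the 43 was 0.064 log2 units, against 0.0062 over all probe sets, and the members ranged from -0.014 to 0.14. The largest difference, that of Rpl12, came to 9.81%, and its 95% interval reached a fold of 1.16. No member passed the threshold, an adjusted p below 0.05 by limma with Benjamini-Hochberg adjustment over all probe sets, while 0.929% of all probe sets did (0.387% higher and 0.542% lower). At an unadjusted p below 0.05, 19 of the 43 were higher and 0 lower, against 6.67% and 5.42% of all probe sets.

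The spread between rats was of the size of the differences, with a median SD of 0.0617 log2 units in water rats over the 43 members. The median standard error (SE) of the 43 differences was 0.0326 log2 units, against 0.0561 for all probe sets. In 33 of the 43 members all 7 ethanol rats lay above the water mean, which held for 7.56% of all probe sets. In 7 members, Rpl5, Rpl19, Rpl3, Rpl34, Rpl23, Rps6 and Rps28, the lowest ethanol rat lay above the highest water rat, against 0.247% of all probe sets. The members were measured in the same rats, so such counts do not stand for that many independent observations.

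**Figure D1:**
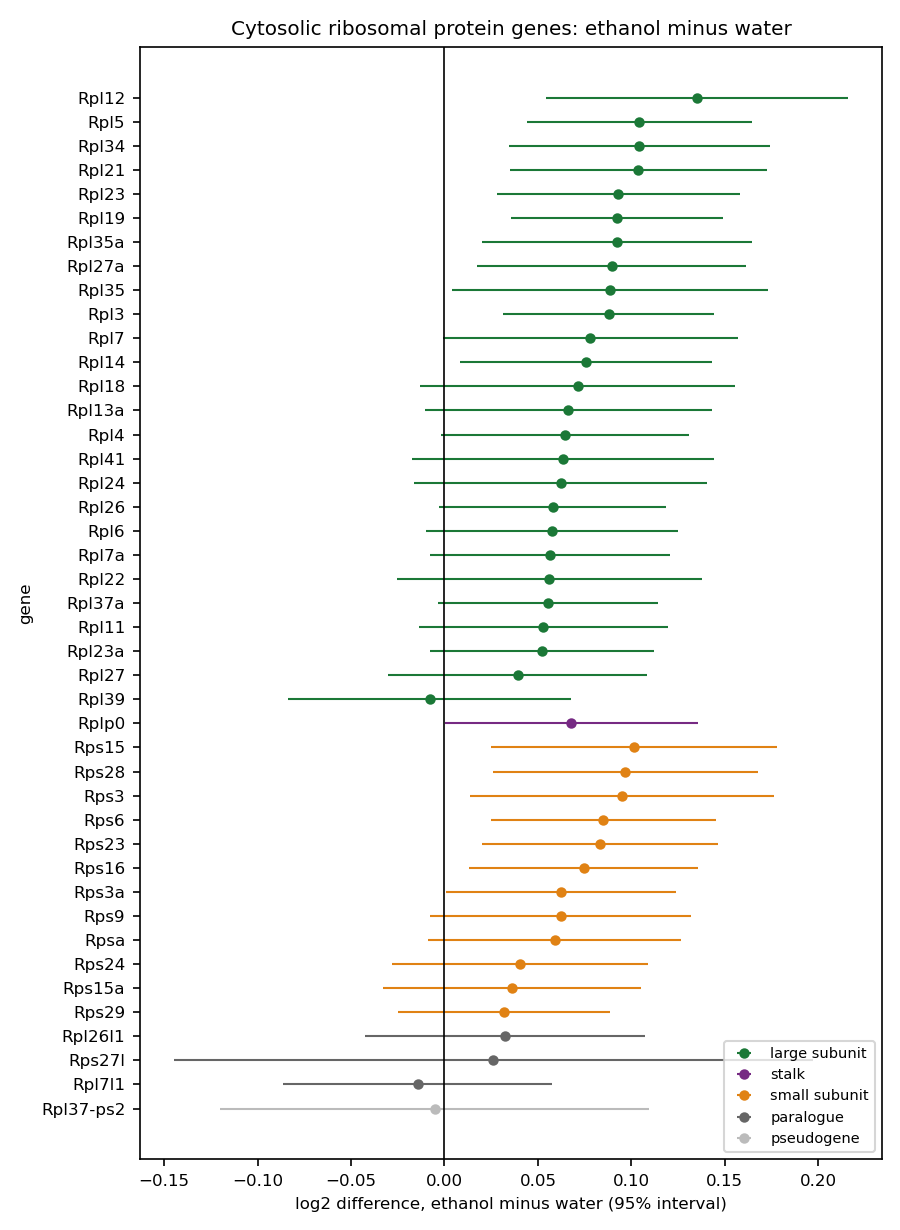
Difference between ethanol and water rats (horizontal axis, log2 units) for each of the 43 tested ribosomal protein genes (vertical axis), coloured by role. Points are fitted differences and bars their 95% intervals; 40 of the 43 points lie right of 0 and the largest is Rpl12 at 0.14.

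The 3 members with the smallest p and a promoter entry were Rpl5, Rpl12 and Rpl19. They are shown with the stalk gene Rplp0 to display the pyrimidine runs near the start of these genes. Each line gives 50 bases before and 10 bases from the start used by RefSeq in the GRCr8 assembly, on the gene's own strand. Capitals mark the longest run of C and T that reaches within 20 bases of the start.
Rpl5: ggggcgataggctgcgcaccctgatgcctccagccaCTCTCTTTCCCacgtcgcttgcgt
Rpl12: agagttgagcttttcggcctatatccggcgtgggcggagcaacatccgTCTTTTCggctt
Rpl19: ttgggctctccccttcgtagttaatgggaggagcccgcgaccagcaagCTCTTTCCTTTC
Rplp0: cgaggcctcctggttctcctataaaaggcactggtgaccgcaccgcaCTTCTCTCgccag
The stretches lie at chr14:1995216-1995275 (minus strand) for Rpl5, chr3:36661890-36661949 (plus) for Rpl12, chr10:83519014-83519073 (plus) for Rpl19 and chr12:46718381-46718440 (minus) for Rplp0. Their runs measure 11, 7, 12 and 8 bases.

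RefSeq held a promoter entry, 250 bases before to 50 after a start, for 36 of the 43 tested members. For 20 of the 36 that start was within 1 base of the one in the RefSeq gene table, so the run may sit off the start actually used. A run of 8 or more C and T was found in 24 of the 36, or 66.7%, against 20.9% of 27457 genes with an entry and 23.8% of 63 mitochondrial ribosomal protein genes. The letters CCGGAA, the core bound by ETS factors, stood in 38.9% of the 36, against 15.8% of all. GGGCGG, bound by Sp1, was in 58.3% against 34.9%, and AAGATGGC, bound by YY1, in 11.1% against 3.44%. CTTTCC was in 44.4% against 26.4%, and TATAAA, the TATA box, in 13.9% against 14.3%. Among mitochondrial ribosomal protein genes these shares were 52.4% for CCGGAA, 47.6% for GGGCGG and 25.4% for AAGATGGC, 31.7% for CTTTCC and 12.7% for TATAAA. All 5 strings were sought on both strands over the whole entry. The reverse complement of CCGGAA can overlap GGGCGG and CTTTCC, and a match is no evidence of binding.

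Of the 26 large-subunit proteins tested, 25 had a higher mean in ethanol rats, with a median of 0.069. At an unadjusted p below 0.05, 11 of the 26 were higher, against 6.67% of all probe sets. Rpl5, which forms an assembly particle with Rpl11 and a small ribosomal RNA and can bind the p53 regulator Mdm2, ranged over 14.45, 14.47 and 14.54 log2 units (lowest, median and highest) in ethanol rats, against 14.31, 14.39 and 14.42 in water rats. The groups did not overlap. The means were 14.48 ± 0.03 in the ethanol group and 14.38 ± 0.04 in the water group (SD, n = 7 and n = 8), a difference of 0.10 (SE 0.028, limma adjusted p = 0.113). Rpl12, a protein at the base of the stalk, spanned 13.97, 14.07 and 14.08 in ethanol rats and 13.78, 13.94 and 14.00 in water rats. Its difference was 0.14 (SE 0.038, limma adjusted p = 0.131, 95% interval 0.054 to 0.22). Only ethanol rat 4 fell inside the water range, and water rats 7 and 8 were the lowest of all.

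Rpl19, a protein that helps to bridge the subunits, showed 14.93, 14.95 and 15.01 log2 units (lowest, median and highest) in ethanol rats, against 14.81, 14.86 and 14.90 in water rats. All ethanol rats lay above all water rats, with a difference of 0.092 (SE 0.027, limma adjusted p = 0.143). Rpl3, which reaches toward the site where peptide bonds form, showed 14.59, 14.60 and 14.63 in ethanol rats and 14.45, 14.52 and 14.55 in water rats. That difference was 0.088 (SE 0.027, limma adjusted p = 0.165), again without overlap. Rpl34 (0.10), Rpl21 (0.10) and Rpl23 (0.093) followed, the last another protein able to bind Mdm2. Rpl34 and Rpl23 did not overlap between the groups, whereas Rpl21 did, through water rat 5.

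Other large-subunit proteins, several with known extra functions, showed smaller differences. Those named above had the smallest p of the 26, so this order follows largely from the choice. Rpl11, the partner of Rpl5, was at 14.13 ± 0.03 in the ethanol group and 14.08 ± 0.05 in the water group (SD, n = 7 and n = 8), a difference of 0.053 (95% interval -0.014 to 0.12). Rpl26, which can bind the p53 mRNA, differed by 0.058, Rpl13a, which leaves the ribosome in interferon-treated cells to silence certain mRNAs, by 0.066, and Rpl41, the smallest ribosomal protein, by 0.063. Rpl22, which also binds other RNAs, differed by 0.056, and 0 of its 7 ethanol rats lay above the highest water rat. Rpl39, which lines the exit tunnel of the growing chain, was the exception among the 26. Its probe set showed 8.54, 8.57 and 8.60 in ethanol rats and 8.46, 8.56 and 8.71 in water rats, a difference of -0.0080 (95% interval -0.084 to 0.068). The ethanol rats lay wholly within the water range.

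The stalk was represented by Rplp0 alone, its anchor on the large subunit. Rplp0 showed 13.52, 13.55 and 13.58 log2 units (lowest, median and highest) in ethanol rats and 13.35, 13.50 and 13.54 in water rats. The difference was 0.068 (SE 0.032, limma adjusted p = 0.413), and water rat 8 was the lowest of all rats.

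All 12 small-subunit proteins tested had higher means in ethanol rats, with a median of 0.068. At an unadjusted p below 0.05, 7 of the 12 were higher, against 6.67% of all probe sets. Rps6, the ribosomal target of the S6 kinases downstream of mTOR, showed 14.52, 14.54 and 14.57 log2 units (lowest, median and highest) in ethanol rats, against 14.39, 14.46 and 14.51 in water rats. The groups did not overlap, and the difference was 0.085 (SE 0.029, limma adjusted p = 0.220). Rps28, a small protein on the path of the mRNA, showed 13.93, 13.96 and 14.01 in ethanol rats and 13.75, 13.89 and 13.92 in water rats. Here too no value overlapped, with a difference of 0.097 (limma adjusted p = 0.237). Rps15 (0.10), whose tail reaches the decoding site, and Rps3 (0.095), which lies at the mRNA entry and also acts in DNA repair, overlapped between the groups. Rpsa, known also as a precursor of a laminin receptor, differed by 0.059 (95% interval -0.0088 to 0.13), and Rps29 had the smallest difference of the 12, 0.032.

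**Figure D2:**
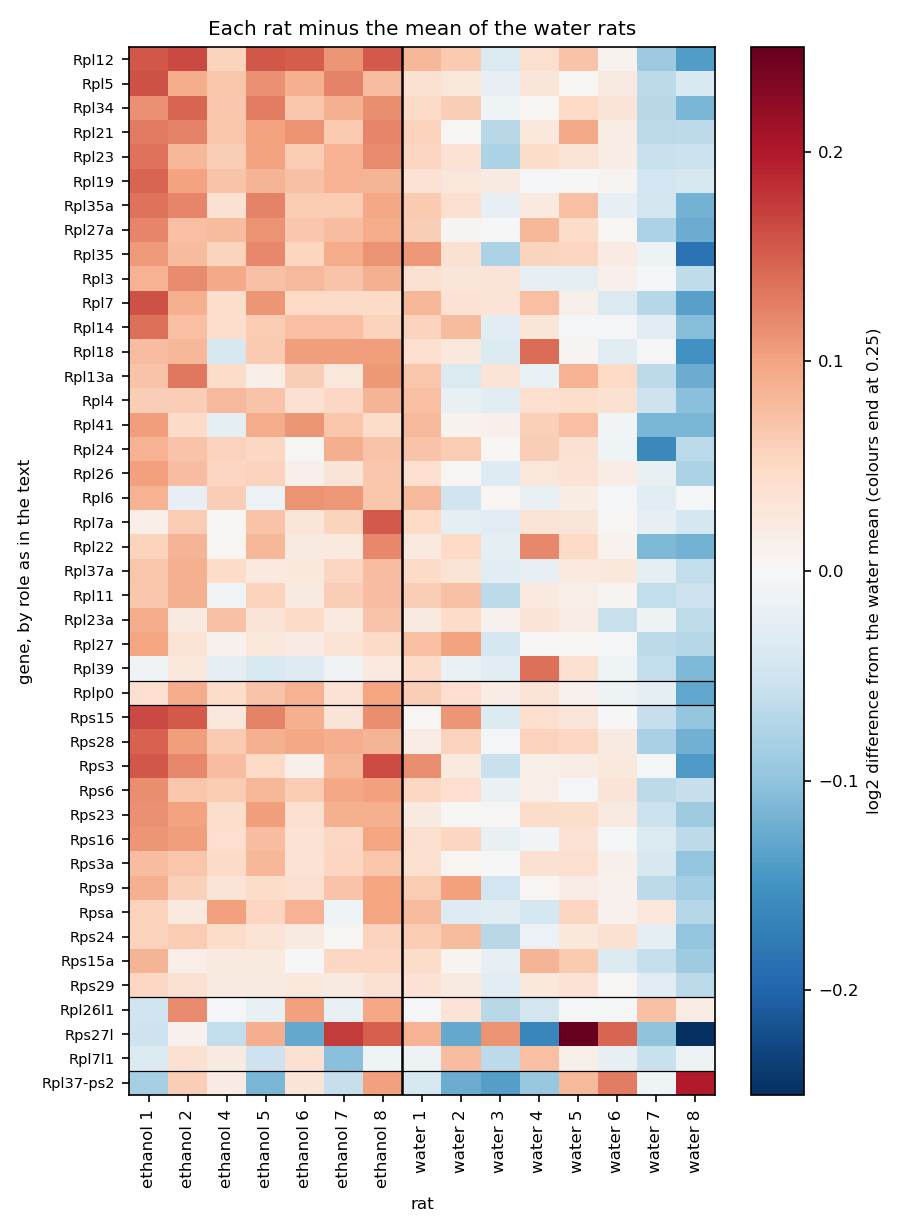
Value of each rat minus the mean of the water rats (colour, log2 units) for the 43 tested genes (rows, grouped by large subunit, stalk, small subunit, paralogues and pseudogene) in 7 ethanol rats and 8 water rats (columns). Ethanol columns are mostly red in the first 3 blocks, and the columns of water rats 3, 7 and 8 mostly pale or blue.

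Paralogues and the pseudogene had differences nearer 0, and whether they differ from the other members was not tested. Of the 3 paralogues tested, Rpl26l1 differed by 0.032, Rps27l, a target of p53, by 0.026 and Rpl7l1, thought to act in subunit assembly, by -0.014. Rps27l showed 7.89, 8.03 and 8.19 log2 units (lowest, median and highest) in ethanol rats, inside the 7.73, 8.01 and 8.35 of water rats. Rpl37-ps2 averaged 10.59 ± 0.08 in the ethanol group and 10.60 ± 0.12 in the water group (SD, n = 7 and n = 8). These 4 probe sets and that of Rpl39 were the only tested members with a mean under 13, a limit chosen after the values were seen. The 38 members at or above it all had higher means in ethanol rats (median 0.069), and the 5 below had a median of -0.0053. Of 531 other probe sets with a mean of 13 or more, 252 were higher and 279 lower, with a median of -0.0025.

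The 7 members that failed the filter were Rpl28, Rpl30, Rps13, Rpl39l1, Rpl3l, Rps4y2 and Rps4x-ps1. They averaged from 4.37 to 6.94 in ethanol rats and 4.44 to 6.87 in water rats. Rpl3l, the muscle form of Rpl3, had 5.55 ± 0.12 in the ethanol group and 5.56 ± 0.10 in the water group (SD, n = 7 and n = 8), and these dim values allow no statement on a change. Another 36 probe sets carried several symbols, at least 1 of them by the same pattern, mostly a ribosomal protein gene with its near-identical copies or pseudogenes. They are not named, because the signal cannot be assigned. Of the 35 that passed the filter all had a higher mean in ethanol rats, with a median of 0.069, and 0 passed the threshold. Each rat's mean over them ran from 13.82 to 13.88 in ethanol rats and from 13.71 to 13.84 in water rats.

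Some genes had further probe sets above the filter. Rpsa had 2 further probe sets, at 0.11 each, larger than the 0.059 of the one chosen. A dimmer probe set of Rpl3 was at 0.081 and one of Rpl7 at 0.0083, where the chosen probe set of Rpl7 was at 0.078. Rpl7l1 was slightly negative in both of its probe sets (-0.014 and -0.027).

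Averaged over many members, the rats differed as follows. The mean of the 26 large-subunit members was 13.99, 13.96 and 14.02 log2 units in ethanol rats as mean, lowest and highest, against 13.92, 13.83 and 13.98 in water rats. That of the 12 small-subunit members was 14.35, 14.33 and 14.39 in ethanol rats, against 14.29, 14.20 and 14.33 in water rats. In both, water rat 1 was the only water rat within the ethanol range. Of the 43 members, 22 to 41 exceeded their own median over all rats in each ethanol rat, against 1 to 23 in each water rat. Water rats 3, 7 and 8 had 1, 1 and 2 such members, and water rat 1 had 23.

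**Figure D3:**
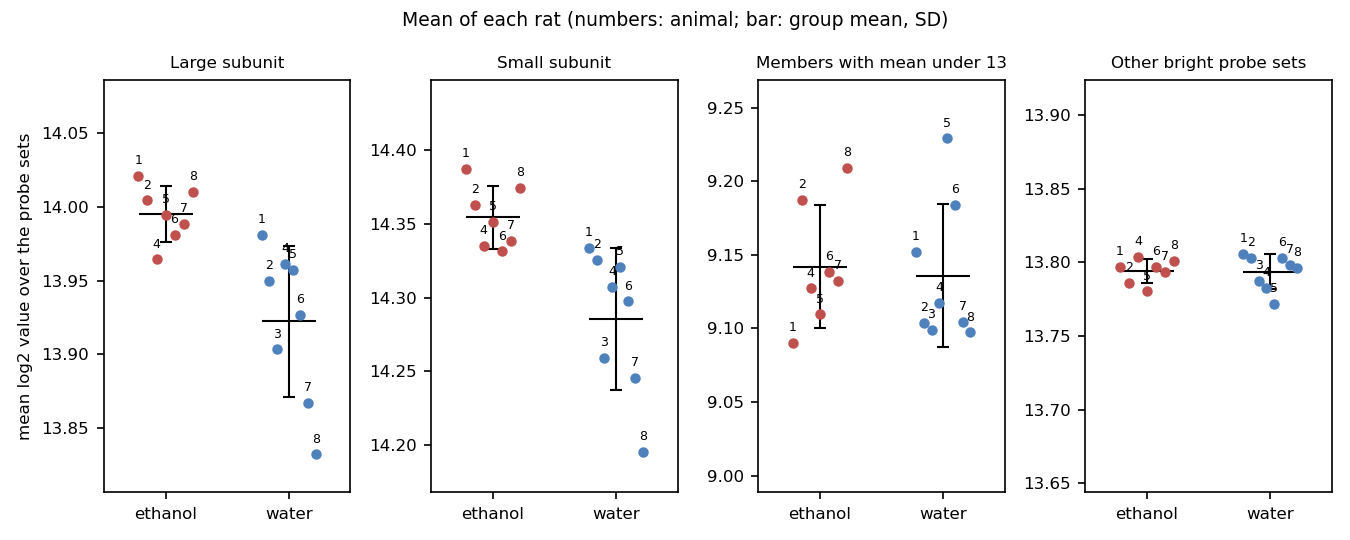
Mean log2 value of each rat (points, numbered by animal) over large-subunit members, small-subunit members, the 5 members with a mean under 13 and 531 other probe sets with a mean of 13 or more, with group mean and SD. The first 2 panels separate 7 ethanol from 8 water rats except for water rat 1, and the last 2 do not; all panels span the same log2 range.

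Water rats spread more widely than ethanol rats. The mean over all members had an SD of 0.0183 in ethanol rats and 0.0473 in water rats, and 40 of the 43 members had the smaller SD in ethanol rats, against 67.5% of all probe sets. Without water rats 7 and 8, a choice made after seeing the data, the median difference of the 43 was 0.045, with 40 higher and 0 called. These 2 arrays also had the lowest median correlation with the others, 0.9881 and 0.9893. Ethanol rats had 0.9909 to 0.9925 and the other water rats 0.9895 to 0.9922. Water rat 5, whose mean over all members was 13.62, was close to water rat 8, at 0.9895. The integrity measure, signal at the 3′ minus the 5′ end of control transcripts, was 1.05 in water rat 7, the lowest of the water rats, and 1.08 in water rat 8, against 0.989 to 1.15 in ethanol rats and 1.07 to 1.1997 in the other water rats. The part of these differences in the result was not tested.

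Microglial markers and most myelin markers moved with the groups. All 14 microglial markers listed passed the filter. By limma with adjustment over all probe sets, 5 rose and 0 fell (Gpr34 0.89, Tyrobp 0.41, Trem2 0.32, Ctss 0.36 and Ptprc 0.38). Of all probe sets, 0.387% were called higher and 0.542% lower. The mean of the 14 ran from 9.37 to 9.64 log2 units in ethanol rats and from 8.998 to 9.42 in water rats, lowest in water rats 7 and 8. With this mean as a covariate, a fit chosen after seeing the data, the median difference of the ribosomal protein members was 0.0036, with 24 of 43 higher. The median SE was then 0.0477 and the covariate itself differed between the groups. Of the 14 oligodendrocyte and myelin markers 12 passed the filter, with 11 lower and 1 higher in ethanol rats. Called lower were 5, against 0.542% of all probe sets. The 1 higher marker differed by 0.20, at an unadjusted limma p below 0.05. The mean of the 12 ran from 12.9965 to 13.32 in ethanol rats and from 13.25 to 13.71 in water rats. With it as a covariate, a fit also chosen after seeing the data, the ribosomal median was 0.086, with 42 of 43 higher. The median SE was then 0.043, and this covariate too differed between the groups. In RNA from bulk tissue, fewer cells of a type and less RNA per cell cannot be told apart.

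Other cell type lists showed 0 calls. Dopamine neuron markers (9 of 12 tested, 9 higher, 0 lower) had a median of 0.16. The groups overlapped widely, with means from 12.48 to 13.19 in ethanol rats and 12.28 to 12.98 in water rats. General neuronal markers (10 of 10 tested, 1 higher, 9 lower) had a median of -0.016. Astrocyte markers (9 of 10, 3 higher, 6 lower) had one of -0.047. Endothelial and mural markers (9 of 10, 6 higher, 3 lower) had one of 0.048, and meningeal markers (6 of 8, 1 higher, 5 lower) one of -0.33. The means of these lists also overlapped between the groups. At an unadjusted p below 0.05, 1 dopamine neuron marker was higher in ethanol rats, against 6.67% of all probe sets. At the same limit 2 astrocyte and 2 meningeal markers were lower, against 5.42%. Of the astrocyte markers 1, Gjb6, was lower (-0.24, limma adjusted p = 0.0890) without overlap between the groups, against 0.376% of all probe sets. The part of these lists in the ribosomal result was not tested.

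Of 22 other mRNAs of the TOP class listed, 14 were tested, and 12 had higher means in ethanol rats, with a median of 0.071. At an unadjusted p below 0.05, 8 of the 14 were higher, against 6.67% of all probe sets. Eif4b, a helper of the initiation helicase, was the largest at 0.20. It averaged 11.01 ± 0.07 in the ethanol group and 10.82 ± 0.11 in the water group (SD, n = 7 and n = 8) (limma adjusted p = 0.0638). Eif2s3, a subunit of the factor that brings the initiator tRNA, differed by 0.096 (limma adjusted p = 0.137). The elongation factor Eef1a1 differed by 0.072, Eef1g by 0.090, Rack1, a protein on the small subunit, by 0.070 and Naca, which meets new chains, by 0.070. Eef2, which moves the ribosome along the mRNA, was at -0.0074, and Vim at -0.11.

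Among 74 tested ribosome assembly factors 47 had higher means, with a median of 0.015, 0 called, Ncl at 0.029 and Fbl at 0.035. The factors with the smallest p were Nhp2 (0.082) and Nop53 (0.082). RNA polymerase I and its factors, which make ribosomal RNA, had a median of 0.040 over 14 genes. Taf1b (0.21, limma adjusted p = 0.171) and Rrn3 (0.12, limma adjusted p = 0.223) led them. Initiation factors as a whole (33 tested, 18 higher) had a median of 0.0040, elongation factors (10 tested, 6 higher) one of 0.038. Partners of newly made chains (13 tested, 4 higher) had one of -0.013. These lists share genes with the TOP list, among them Eif4b, Eif2s3, Eef1a1, Eef1g, Rack1 and Naca, so the lists are not separate observations.

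Among 29 genes of mTOR complex 1 and S6 kinase signalling the median was 0.0083. Only 1 gene was called, and it was lower, against 0.542% of all probe sets called lower. Ddit4, a stress-induced inhibitor of mTOR complex 1, fell by 0.64 log2 units (SE 0.10, limma adjusted p = 0.00587), at 9.97 ± 0.27 in the ethanol group and 10.60 ± 0.16 in the water group (SD, n = 7 and n = 8). Eif4ebp1, a repressor of initiation that mTOR inactivates, differed by 0.16 (limma adjusted p = 0.0872). Mtor (-0.011), Rps6kb1 (0.042) and Larp1 (0.0023) had differences smaller than their SE. The 5 tested genes of the p53 arm that free ribosomal proteins can engage all had lower means, led by Cdkn1a (-0.18, 95% interval -0.45 to 0.095) and Bbc3 (-0.027), and 0 were called.

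Mitochondrial ribosomal proteins serve the separate ribosome of mitochondria. Of 73 of their genes tested, 28 had higher and 45 lower means in ethanol rats, with a median of -0.012, a range of -0.11 to 0.10 and 0 called. The extremes were Mrps12 (-0.11, limma adjusted p = 0.287) and Mrpl23 (0.10, limma adjusted p = 0.288). All 73 probe sets had a mean under 13 (highest 12.63), and the cytosolic members under 13 had a median of -0.0053. The 2 kinds of ribosome thus also differed in signal level, and the difference between them was not tested.

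**Figure D4:**
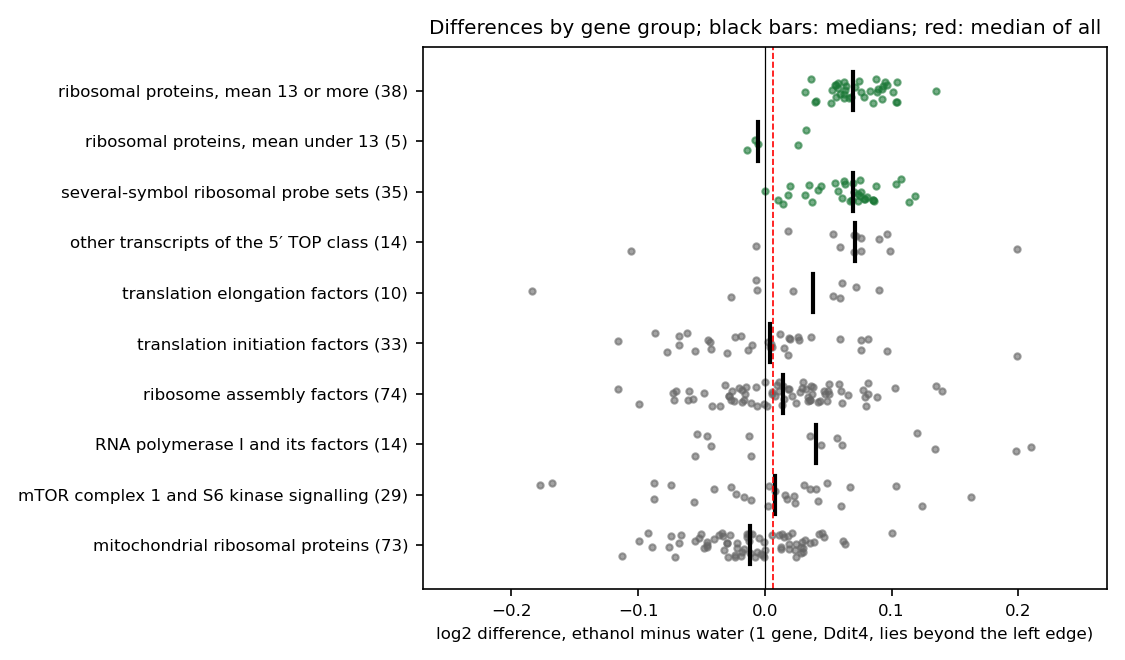
Differences between ethanol and water rats (horizontal axis, log2 units) for each tested gene or probe set of 10 groups (rows, number tested in brackets). Black bars are medians and the red line is the median of all probe sets, 0.0062. Some genes of the TOP group also stand in the elongation or initiation factor group. All mitochondrial ribosomal protein probe sets had a mean under 13. All 43 ribosomal proteins had a median of 0.064; those with a mean of 13 or more (median 0.069), the several-symbol probe sets (0.069) and other TOP transcripts (0.071) lie to the right, and the 5 members with a mean under 13 (-0.0053) and mitochondrial ribosomal proteins (-0.012) centre near 0.

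With limma's prior variance allowed to depend on intensity and made robust, 2 of the 43 members passed the threshold and both rose, against 0.392% of all probe sets called higher (0.961% in either direction). They were Rpl5 (SE 0.023, limma adjusted p = 0.0361) and Rpl19 (SE 0.020, limma adjusted p = 0.0370). Rpl3 (limma adjusted p = 0.0542) and Rpl12 (limma adjusted p = 0.0780) stayed above it. Among the translation genes listed, Eif4b passed in this fit too (limma adjusted p = 0.0460).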

How the data were processed

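Per the labels' protocols, 25 ng of total RNA per sample went through 2 amplification cycles and was read on Affymetrix rat arrays, 1 rat each. The log2 values were deposited by the authors, made with RMA per the submitters' processing notes (software and version not given in the sources used here). Gene names came from the platform annotation; 48 of the 50 members were found by Entrez number in RefSeq's GRCr8 table with the same symbol.

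Probe sets with a mean at or above the 40th percentile (18625 of 31042) entered a two-sided limma fit without covariates (lmFit and eBayes; limma 3.58.1, R 4.3.3), with Benjamini-Hochberg adjustment over the 18625. Differences are ethanol minus water. The fit was tested on simulated data in which each probe set varied independently of the others. That setting does not cover members that move together across rats. The number of arrays limits the precision. The p-values measure only the spread between these rats.

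Named were the members with the smallest p (10 higher, 6 lower, of which 3 existed), members with a fixed role, and in each other list the called genes, the 2 with the smallest p and 8 regulators (Npm1 had no tested probe set); others were chosen after their values were seen. Of the fixed roles, 9 symbols had no probe set of their own. Members and lists were chosen with earlier results of these data known. Animal numbers recur in both groups, and were not taken as pairs. Alternatives were other filters, centring, weights, priors, blocks, covariates and leaving out each rat.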

Additional observations from a re-analysis of the deposited data

Results flagged for a closer look

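Within-group extremes were sought in 50 sets of values, the 22 named members and 3 means of members in each group, with Dixon's test at the 95% level, and chance alone gives about 1 in 20. It marked 2. Rpl19 was 15.01 log2 units in ethanol rat 1, the highest of its group, against 14.96 in the next. Rplp0 was 13.35 in water rat 8, the lowest of its group, against 13.46 in the next.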

How the results depend on the processing

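Over the 13 settings beside leaving out single rats, and over the 15 that left out 1, the median difference of the members stayed positive. It was 0.048 with arrays centred on their medians, 0.050 to 0.075 with 1 rat left out, and 0.0036 (24 of 43 higher) with the microglial marker mean as a covariate. No member passed in any of these fits except Rpl5 and Rpl19, 2 members, with an intensity trend and robust prior. Called probe sets, 173 in all, numbered 100 to 180 with 1 rat left out (100 without ethanol rat 7 and 102 without ethanol rat 8), 361 (295 higher) with the myelin marker mean and 290 (270 lower) with the microglial marker mean as a covariate, and 59 with the animal number as a replicate block, where the median of the members was 0.065 and 0 of them passed. The block fit left out water rat 3, whose number no ethanol rat shares. Without water rat 3 and without blocks, 130 probe sets were called and the median of the members was 0.065. The cause of these changes in number was not tested. Genes near 0 changed sign: Rpl37-ps2 was positive without ethanol rat 1 (0.0077), 5 (0.013) or 7 (0.0035), without water rat 5 (0.0064), 6 (0.013) or 8 (0.023) and without water rats 7 and 8 (0.026); Rpl7l1 was 0.00073 without ethanol rat 7, Rpl39 0.012 without water rat 4, and Rps27l -0.015 without water rat 8 and -0.038 without water rats 7 and 8. Over single left-out rats these 4 ranged from -0.025 to 0.023 (Rpl37-ps2), -0.024 to 0.00073 (Rpl7l1), -0.024 to 0.012 (Rpl39) and -0.015 to 0.074 (Rps27l). Other refits of named members, 492 in number, kept direction and side of the threshold. Deviations of same-numbered rats correlated from -0.41 to 0.29, above 0.1 in 4 of 7 pairs; the labels do not say what a shared number means, and whether it marks a shared litter or day is unknown. Dim probe sets have no background measure here beyond their mean.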
